A study of Mus musculus with 4 samples.

Results

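The palatal mesenchyme transcription factors are 9 listed mouse genes, Osr1, Osr2, Shox2, Foxf1, Foxf2, Meox2, Barx1, Mn1 and Msx1, chosen by name because each is known to act along an anterior-posterior or mediolateral axis of the growing palate. Earlier results of these data were known when the choice was made. A gene took part when at least 1 transcript cluster of the array carries its symbol alone, and 8 of the 9 did so, out of 22180 genes named in this way. Both clusters that carry Msx1, a homeodomain factor of the anterior palate, also carry its antisense transcript Msx1os, so no value is given for Msx1. RNA was hybridised to 4 Affymetrix Mouse Gene 2.0 ST arrays, 1 for each group. The groups were Tbx1 knockout (KO) palatal shelves and wild-type (WT) palatal shelves at embryonic day 13.5 (E13.5), and Tbx1 KO head and WT head at E12.5, all on a mixed C57BL/6J x FVB/N background. The labels neither describe the knockout allele nor mention whether embryos were pooled. Values are log2 expression after RMA, so a difference of 1 is a doubling. With 1 array in each group no difference between KO and WT within a tissue has a replicate check, and 4 arrays in all limit how precise any value can be.

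The secondary palate forms from paired shelves that grow out of the maxillary processes, and most of each shelf is mesenchyme derived from the cranial neural crest. Its cells carry positional identity. Shox2 and Msx1 mark the anterior shelf, Meox2, Barx1 and Mn1 are posterior factors, and the Osr and Foxf genes differ from the medial to the lateral and from the nasal to the oral side. Hedgehog signal from the oral epithelium induces the Foxf genes, and loss of Osr2, Shox2, Msx1 or Mn1 is known to cause cleft palate in mice. Tbx1 encodes a T-box transcription factor of the pharyngeal apparatus, and its loss also causes cleft palate.

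Before the members are described, the arrays were set against their labels. The Tbx1 level was 6.18 in KO shelves and 7.39 in WT shelves, and 6.25 in KO head and 6.83 in WT head, so it was lower in the KO array of both tissues. The sources used here do not say whether its probes lie in the deleted part. The description of the E13.5 samples calls them heads, although their titles name palatal shelves. Of 18 brain marker genes in the fit described below, 18 fell in the shelves relative to the head (median log2 difference -2.09). Of 11 oral and nasal epithelium genes, 11 rose, with a median of 1.24. Over all genes of the fit, 47.2% lay above 0 in this contrast. Only 9 of the epithelium genes reached the level for entry, given below, in the head, and 16 brain genes did so in the shelves. The rest entered only through the tissue where they were high, so the filter favoured their direction. Brain genes were still read in the shelves, and Ina, a neuronal intermediate filament gene, was at 10.02 in KO shelves and 8.54 in WT shelves. By genotype the brain genes did not all go 1 way. Emx2, another gene of the list, was at 5.86 in KO shelves and 7.05 in WT shelves.

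Sequence upstream of the transcription start was available from RefSeq (GRCm38.p6) for 4 of the 8 measured members, Shox2, Meox2, Foxf2 and Barx1. These 4 are shown because they are the members with an available sequence, and each of them is among the 6 members that rose in the palatal shelves relative to the head. Each line holds the 250 bases before the start, 5′ to 3′ on the gene's strand, at chr3:66981772-66982021 (minus strand) for Shox2, chr12:37108290-37108539 (plus strand) for Meox2, chr13:31625566-31625815 (plus strand) for Foxf2 and chr13:48662786-48663035 (plus strand) for Barx1. Capitals mark a match to the GLI core described in the next paragraph.
Shox2: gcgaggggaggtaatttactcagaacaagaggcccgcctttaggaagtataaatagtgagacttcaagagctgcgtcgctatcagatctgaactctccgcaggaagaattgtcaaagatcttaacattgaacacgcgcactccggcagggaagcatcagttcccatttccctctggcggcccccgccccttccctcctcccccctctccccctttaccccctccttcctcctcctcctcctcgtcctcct
Meox2: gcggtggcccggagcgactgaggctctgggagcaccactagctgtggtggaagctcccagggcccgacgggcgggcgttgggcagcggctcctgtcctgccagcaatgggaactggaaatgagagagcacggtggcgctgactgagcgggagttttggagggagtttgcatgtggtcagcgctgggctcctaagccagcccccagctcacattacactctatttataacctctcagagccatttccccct
Foxf2: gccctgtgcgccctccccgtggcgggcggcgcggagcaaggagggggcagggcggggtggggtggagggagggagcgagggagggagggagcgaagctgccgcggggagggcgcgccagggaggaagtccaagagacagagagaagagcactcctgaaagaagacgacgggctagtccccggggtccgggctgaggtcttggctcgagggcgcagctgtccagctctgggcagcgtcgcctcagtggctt
Barx1: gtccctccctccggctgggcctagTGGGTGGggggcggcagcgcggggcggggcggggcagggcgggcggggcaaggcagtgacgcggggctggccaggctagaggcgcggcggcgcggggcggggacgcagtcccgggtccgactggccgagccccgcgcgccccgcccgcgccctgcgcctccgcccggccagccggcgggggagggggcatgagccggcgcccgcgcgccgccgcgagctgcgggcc

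Short motifs were searched on both strands of these windows: GGTGTGA, a core of the site bound by T-box factors, CCACCCA, a core of the site bound by the hedgehog effectors of the GLI family, and TAATTA, a core bound by many homeodomain factors. The GLI core occurred once, on the minus strand of the Barx1 window, beginning 226 bases before the start, and 8.11% of all 32851 windows of this length hold it. The T-box core, held by 3.33% of all windows, and the homeodomain core, held by 4.84%, were not among the letters of these 4 windows. The windows had a G and C content of 55.6% (Shox2), 62% (Meox2), 71.6% (Foxf2) and 85.6% (Barx1), against a median of 52.4% over all windows.

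In the E13.5 palatal shelves, most of the factors were slightly higher in the KO array than in the WT array, and no member reached a 2-fold difference. The KO minus WT log2 difference was above 0 for 6 of 8 members, with a median of 0.17, whereas 55.2% of the 11449 genes that entered this pair lay above 0, with a median of 0.021. Genes counted in a pair had a level of at least 6.16, the median level of named genes, in the KO or the WT array, and all 8 members did so in both tissues. Foxf1 and Shox2 had the largest differences, and Meox2 was the member furthest below 0. In the whole pair 0.463% of genes passed 2-fold upward and 0.472% downward, so 0 of 8 members is near the background.

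Shox2, the anterior homeodomain factor, was at 8.40 in KO shelves and 8.03 in WT shelves. The KO array was thus higher by 0.36 on the log2 scale, a 1.29-fold difference, and 6.00% of genes that entered were at least as far above 0. In the head, Shox2 was at 7.26 in the KO array and 7.21 in the WT array, a difference of 0.051. A measure of probe error was drawn from how far 2 probe sets of 1 gene disagree about the KO minus WT difference. It needs no replicate, and the resulting SD of 1 probe set was 0.22 in the shelves (255 genes) and 0.18 in the head (254 genes). Both probe sets read the same RNA on the same arrays, so this SD holds no variation between embryos or repeated arrays. The shelf difference of Shox2 lay beyond 1 such SD and the head difference lay within it.

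The posterior factors did not move together. Meox2, a homeodomain factor of the posterior palate and of limb muscle, was at 8.70 in KO shelves and 8.91 in WT shelves (log2 difference -0.21), and at 7.03 in KO head and 7.42 in WT head (-0.39). It was the only member below 0 in both tissues, and 1.33% of genes that entered were at least as far below 0 in the head. Barx1, a homeodomain factor of posterior palate and molar mesenchyme, was at 10.04 in KO shelves and 9.85 in WT shelves (0.18), and at 8.15 in KO head and 8.29 in WT head (-0.15). The signs for Barx1 were thus opposite in the 2 tissues, and both differences lay within 1 probe-set SD. Mn1, a regulator needed for growth of the middle and posterior palate, was at 7.13 in KO shelves and 7.16 in WT shelves, and at 7.36 in KO head and 7.23 in WT head. Its 4 levels spanned 0.22, the narrowest range of the 8 members.

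The mediolateral factors were all above 0 in the shelves. Osr2, an odd-skipped zinc finger factor that drives growth of the shelves, was at 11.15 in KO shelves and 10.99 in WT shelves (0.16), and its relative Osr1, with its own domain in the palate, at 10.35 in KO shelves and 10.14 in WT shelves (0.21). In the head the 2 Osr genes differed little by genotype, with Osr2 at 9.46 in the KO array and 9.43 in the WT array, and Osr1 at 10.55 in the KO array and 10.50 in the WT array. Each Osr difference was smaller than the probe-set SD of its pair.

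Foxf1, a fork head factor of the oral-side mesenchyme, had the largest KO minus WT difference among the members in the shelves. It was at 9.95 in KO shelves and 9.48 in WT shelves, a log2 difference of 0.47 (1.39-fold), and 3.23% of genes that entered were at least as far above 0. In the head the order was opposite, with 7.48 in the KO array and 7.71 in the WT array (-0.23). The shelf difference exceeded the head difference by 0.70, the widest gap among the members, and with 1 array in each group this gap was not tested. Its paralogue Foxf2 was at 8.21 in KO shelves and 8.13 in WT shelves (0.087), and at 6.54 in KO head and 6.69 in WT head (-0.15), with the same signs as Foxf1 and smaller sizes.

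**Figure D1:**
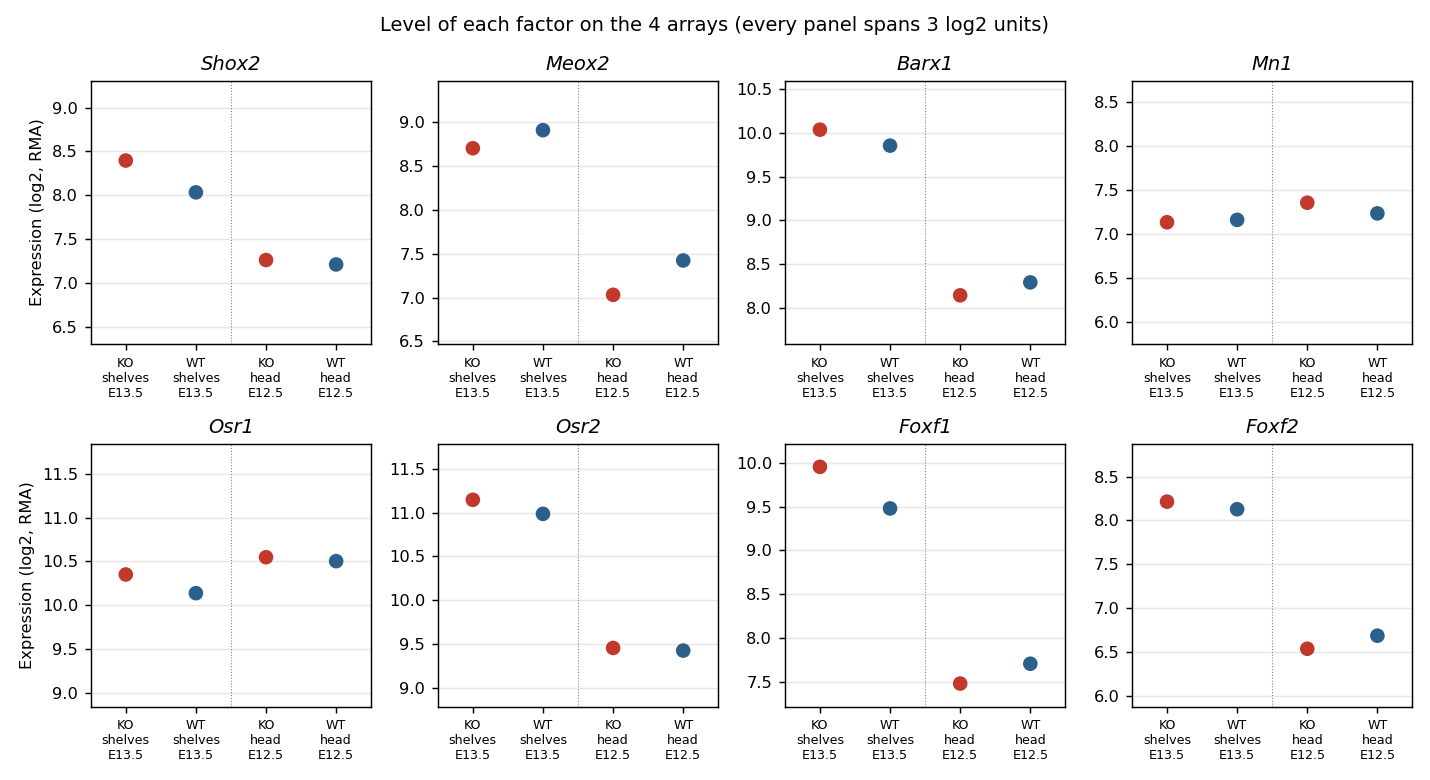
Log2 expression of the 8 measured factors on the 4 arrays, 1 point for each array, with KO in red and WT in blue and palatal shelves left of head. In 6 panels both shelf arrays lie above both head arrays, and in the panels of Mn1 and Osr1 both shelf arrays lie below both head arrays.

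In the E12.5 head, the members split evenly by genotype. Of 8 members, 4 lay above 0 and 4 below, with a median log2 difference of -0.059, whereas 55.5% of the 11364 genes that entered lay below 0, with a median of -0.017. At a lower threshold of 0.32 on the log2 scale, Meox2 was the only member below -0.32 in the head, where 2.41% of genes were, and no member was above 0.32, where 1.74% were. In the shelves 2 members, Foxf1 and Shox2, were above 0.32, where 7.6% of genes were, and none was below -0.32, where 4.65% were. No member was 2-fold different in the head, where 0.0352% of genes were higher and 0.0528% lower by that size. The signs in the 2 tissues were opposite for 4 of 8 members, Foxf1, Foxf2, Barx1 and Mn1, and for 48.8% of genes of the fit described next. For 7 of the 8 members, all but Mn1, the KO minus WT difference was greater in the shelves than in the head, as it was for 57.9% of those genes.

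**Figure D2:**
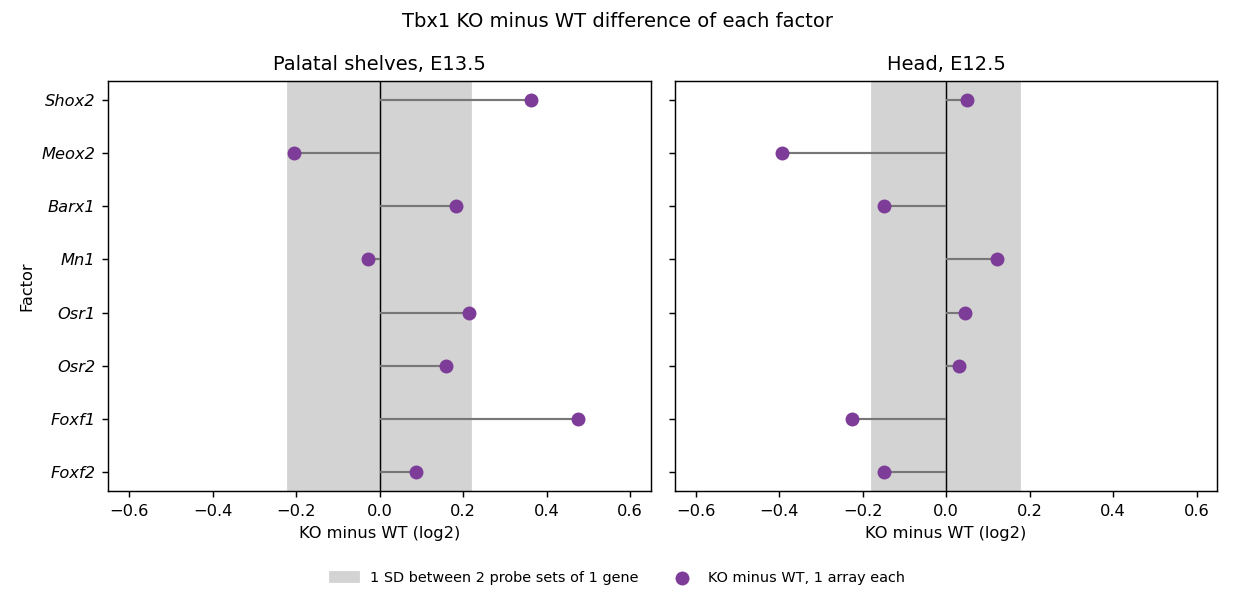
KO minus WT log2 difference of each factor in the palatal shelves (left) and the head (right), 1 KO and 1 WT array in each. The grey band shows the SD of 1 probe set, drawn from the disagreement between 2 probe sets of 1 gene. It holds no variation between embryos. Foxf1 and Shox2 lie outside the band in the shelves, and Meox2 and Foxf1 lie outside it in the head. Osr1 (0.21) and Meox2 (-0.21) lie just inside it in the shelves. There 15.8% of genes were at least as far above 0 as Osr1, and 9.84% at least as far below 0 as Meox2. In the head 6.71% of genes were at least as far below 0 as Foxf1.

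Over both tissues, no member passed a test for genotype. An additive limma fit of genotype and tissue was made over 11999 genes and left 1 residual degree of freedom, so the spread of a gene joins how much its KO minus WT difference varied between the tissues with a prior estimated across the table (SD 0.107 on 5.49 degrees of freedom). The largest estimate was that of Meox2, with a log2 difference of -0.30 (SE 0.11), a limma p of 0.0271 before adjustment and 0.919 after Benjamini-Hochberg adjustment over all genes, and it was lower in the KO array of both tissues. Shox2 had an estimate of 0.21 (SE 0.12, limma adjusted p 0.949), Osr1 of 0.13 (SE 0.10), Foxf1 of 0.12 (SE 0.17) and Osr2 of 0.095 (SE 0.10). Mn1, Barx1 and Foxf2 lay between -0.031 and 0.047, and the limma adjusted p of these 3 and of the other members was at least 0.919. At an unadjusted limma p under 0.05 there was 1 member of 8, Meox2, and 5.23% of all genes. At a limma adjusted p under 0.05 there were 0 members and 0% of all genes. Tbx1, the targeted gene, did not pass either, with an estimate of -0.89 (SE 0.16, limma adjusted p 0.555). A member that did not pass is thus not shown to be unchanged.

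Several lists of other cell types and states lay away from 0 between the KO and WT shelf arrays. Of all genes that entered in the shelves, 55.2% lay above 0, with a median of 0.021. General mesenchyme genes had a median KO minus WT log2 difference of 0.061 in the shelves, with 11 of 14 above 0. Their mean level was 10.25 in KO shelves and 10.19 in WT shelves. In this list Dcn lay furthest from 0 (-0.37), whereas Col1a2 (0.30), Pdgfrb (0.26) and Col1a1 (0.24) lay above 0. Skeletal muscle genes lay below 0 for 14 of 14 that entered, with a median of -1.11 and a mean level of 6.26 in KO shelves and 7.26 in WT shelves. Some of them, among them Mylpf (5.27 in KO shelves, 6.64 in WT shelves), Neb, Mymk and Myog, entered only through WT. For such genes the filter favoured a difference below 0. Actc1 was above the level for entry in both arrays (7.59 in KO shelves, 9.27 in WT shelves). For brain genes the median was 0.45, 11 of 16 lay above 0, and the mean level was 7.97 in KO shelves and 7.65 in WT shelves. Sox1 (6.58 in KO shelves, 5.44 in WT shelves) and Gad2 (6.69 in KO shelves, 5.58 in WT shelves) entered only through KO. Emx2 (5.86 in KO shelves, 7.05 in WT shelves) entered only through WT. For genes of hypoxia and glycolysis the median was 0.80, all 11 lay above 0, and the mean level was 8.79 in KO shelves and 7.98 in WT shelves. For endothelium genes the median was 0.23, 8 of 9 lay above 0, and the mean level was 8.15 in KO shelves and 7.88 in WT shelves. For blood and macrophage genes the median was -0.16, 5 of 6 lay below 0, and the mean level was 7.005 in KO shelves and 7.31 in WT shelves. For bone and cartilage genes the median was -0.012, 5 of 9 lay below 0, and the mean level was 8.54 in KO shelves and 8.51 in WT shelves. For oral and nasal epithelium genes the median was -0.14, 8 of 11 lay below 0, and the mean level was 8.13 in KO shelves and 8.22 in WT shelves. In the head, 17 of 17 skeletal muscle genes lay below 0, with a mean level of 6.53 in KO head and 7.15 in WT head, while the mesenchyme median was -0.021 and the brain median 0.0023. Mylpf again entered only through WT (5.32 in KO head, 6.42 in WT head). Of all genes that entered in the head, 55.5% lay below 0, with a median of -0.017. The part of these differences in the levels of the palatal factors was not tested. In whole tissue, fewer cells of a type and less RNA in each cell cannot be told apart.

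Partners of these factors in the palate and the hedgehog pathway were also mostly above 0 in the KO shelves. Of 39 palate partners that entered, 30 lay above 0, with a median of 0.14, and none was 2-fold different. Of all genes that entered in the shelves, 55.2% lay above 0, with a median of 0.021. Pdgfra, Prrx1 and Twist1 are in this list and in the general mesenchyme list, so the 2 lists are not separate observations. The homeodomain gene Dlx2 was at 8.76 in KO shelves and 8.23 in WT shelves (0.53), Fgf10, a growth factor of the shelf mesenchyme, at 6.93 in KO shelves and 6.49 in WT shelves (0.43), and the homeodomain gene Lhx6 at 9.17 in KO shelves and 8.77 in WT shelves (0.40). Foxl1, a fork head gene that hedgehog induces, was at 6.62 in KO shelves and 5.93 in WT shelves, below the level for entry in WT, so it was counted only through the KO array. Of 10 hedgehog pathway genes, 8 lay above 0 with a median of 0.20, among them the receptor gene Ptch1 (0.31), itself a target of the pathway, and the coreceptor gene Boc (0.33). In the head, 20 of 36 palate partners and 5 of 10 hedgehog genes lay above 0, with medians of 0.018 and 0.0079, and Spry2, a feedback inhibitor of FGF signalling, was at -0.37. Of all genes that entered in the head, 44.5% lay above 0. No gene of these lists passed the genotype test over both tissues at a limma adjusted p of 0.05.

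Most members differed more between palatal shelves and head than between genotypes. Of the 8 members, 6 rose in the shelves at a limma adjusted p under 0.05 and none fell, whereas 13% of the 11999 genes rose and 14.9% fell. Tissue and stage differ together here, E13.5 against E12.5, and cannot be told apart. In the 6 that rose both shelf arrays lay above both head arrays, as 31.9% of all genes did, and in the other 2 both shelf arrays lay below both head arrays, as 37.1% did. The median log2 difference over the 8 members was 1.57, and over all genes it was -0.020.

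Foxf1 had the largest difference of the members, 2.12 on the log2 scale (SE 0.17, 4.35-fold, limma adjusted p 0.000331), and 0.308% of all genes were at least as far above 0. Its shelf minus head difference was 2.47 between the KO arrays and 1.77 between the WT arrays. Barx1 rose by 1.73 (SE 0.12, 3.31-fold), with 1.89 between the KO arrays and 1.56 between the WT arrays. Osr2 rose by 1.63 (SE 0.10, 3.08-fold), Meox2 by 1.58 (SE 0.11, 2.99-fold) and Foxf2 by 1.56 (SE 0.11, 2.95-fold), each with a limma adjusted p between 0.000155 and 0.000204. Neighbours in the order from Barx1 to Foxf2 differed by no more than their SEs, so these 4 have no clear order. Shox2 rose least of the 6, by 0.98 (SE 0.12, 1.97-fold, limma adjusted p 0.00145), with 1.14 between the KO arrays and 0.82 between the WT arrays.

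Osr1 and Mn1 stood on the other side of 0. Osr1 had a log2 difference of -0.28 (SE 0.10, limma adjusted p 0.0914), with -0.20 between the KO arrays and -0.37 between the WT arrays, and Mn1 one of -0.15 (SE 0.10, limma adjusted p 0.331). Neither passed the threshold in this fit, whereas with a mean-variance trend in the prior Osr1 passed (limma adjusted p 0.00914). The paralogues Osr1 and Osr2 thus had estimates of opposite sign, whereas Foxf1 and Foxf2 both rose. For all 6 members that rose, the difference was greater between the KO arrays than between the WT arrays, which restates that their KO minus WT difference was greater in the shelves than in the head.

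**Figure D3:**
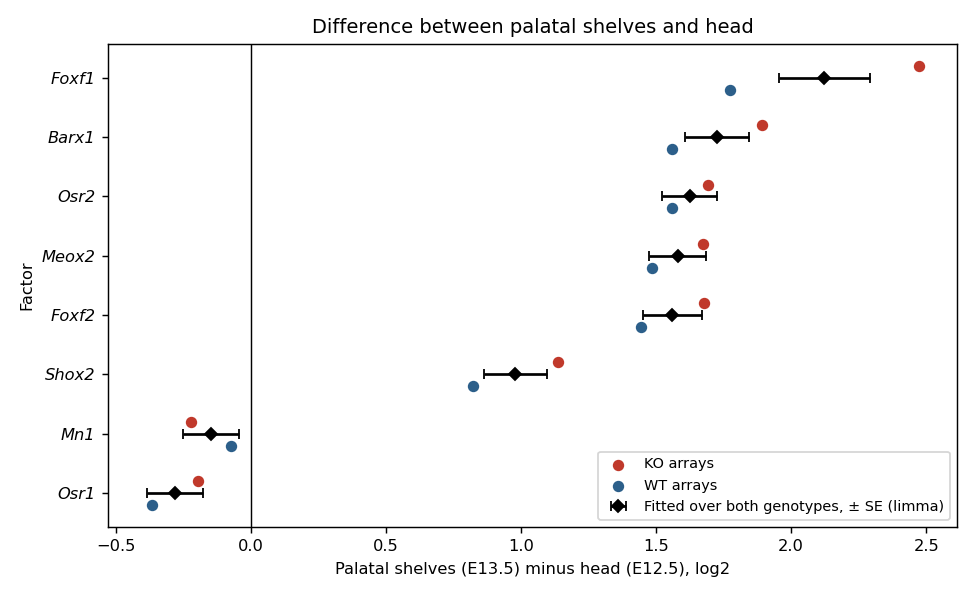
Palatal shelves (E13.5) minus head (E12.5) log2 difference of each factor, with red points for the KO arrays, blue points for the WT arrays and black diamonds with bars for the limma estimate over both genotypes ± SE. Of the estimates, 6 lie between 0.98 and 2.12, and those of Mn1 and Osr1 lie at -0.15 and -0.28.

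General mesenchyme genes also rose in the shelves, and the differences of 6 of the 8 palatal factors were greater than the median of that list. Of 14 mesenchyme genes 10 rose and 1 fell, with a median of 0.66, whereas 13% of all genes rose and 14.9% fell. The matrix genes Postn (1.88, SE 0.10) and Lum (1.05, SE 0.11) and the homeodomain gene Prrx1 (0.98, SE 0.10) led them. The mean level of the list was 10.25 in KO shelves, 10.19 in WT shelves, 9.59 in KO head and 9.59 in WT head. Brain genes, with a mean level of 7.67 in KO shelves, 7.37 in WT shelves, 9.58 in KO head and 9.60 in WT head, went the other way. The part of the different share of brain and mesenchyme in the results of the palatal factors was not tested. Of 40 palate partners, 21 rose and 5 fell. Sim2, a basic helix-loop-helix factor, rose by 2.27 (SE 0.16), Pax9, a paired-box factor needed for palate and teeth, by 1.99 (SE 0.11), and the hyaluronan synthase gene Has2 by 1.66 (SE 0.10). The activin subunit gene Inhba also rose, at 7.64 in KO shelves and 7.42 in WT shelves, but it entered the fit only through the shelf arrays, since it lay below 6.16 in KO head (5.89) and WT head (5.78). In the hedgehog pathway 3 of 10 rose, the target genes Hhip (2.10, SE 0.14), Gli1 (0.94, SE 0.10) and Ptch1 (0.80, SE 0.11), and 2 fell, among them the coreceptor gene Cdon (-0.79, SE 0.10), each at a limma adjusted p under 0.05.

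**Figure D4:**
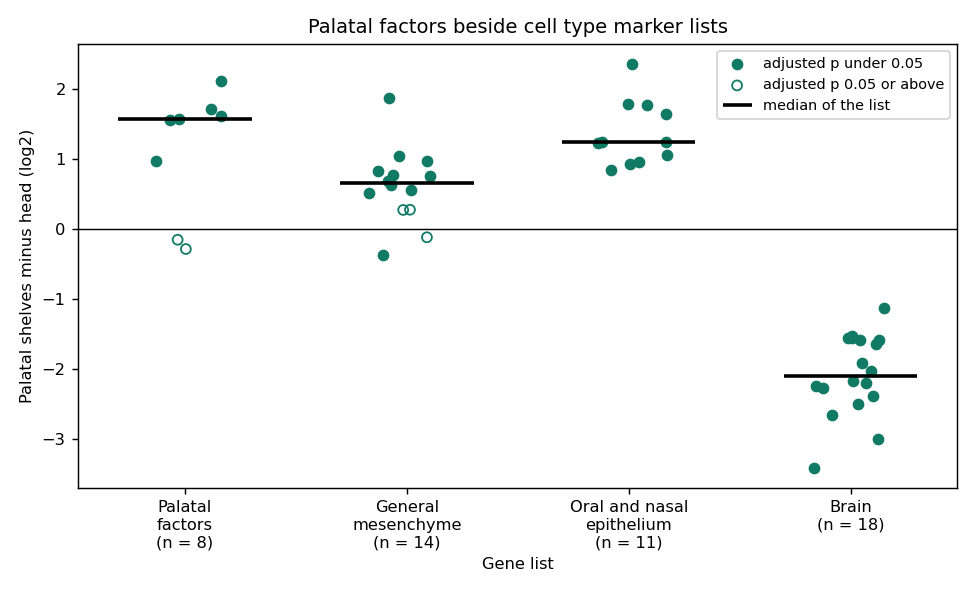
Palatal shelves minus head log2 difference of each gene in 4 lists, with filled points for a limma adjusted p under 0.05, open points for the others and bars for list medians. The medians are 1.57 for the palatal factors, 0.66 for general mesenchyme, 1.24 for oral and nasal epithelium and -2.09 for brain, and horizontal scatter within a list has no meaning.

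Of the fork head genes next to the Foxf members, Foxc2 and Foxc1 fell in the shelves, while Foxf1 and Foxf2 rose. In RefSeq order, Foxc2 and Foxl1 follow Foxf1 on chromosome 8 with Mthfsd between, and Foxq1 and Foxc1 flank Foxf2 on chromosome 13. Foxc2, a mesenchymal fork head factor, fell in the shelves by 0.76 (SE 0.10, limma adjusted p 0.00224), at 7.05 in KO shelves and 6.91 in WT shelves against 7.77 in KO head and 7.72 in WT head. Foxc1 fell by 0.41 (SE 0.10, limma adjusted p 0.0247), at 8.53 in KO shelves and 8.35 in WT shelves against 8.90 in KO head and 8.81 in WT head. Foxl1 had a difference of 0.32 (SE 0.14, limma adjusted p 0.128), and Foxq1 stayed below the level for entry on all 4 arrays. Msx2, the relative of the unmeasured Msx1, fell by 0.99 (SE 0.12, limma adjusted p 0.00135) and lay below the level for entry in both shelf arrays, at 5.81 in KO shelves and 5.71 in WT shelves.

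Genes with the most similar pattern were found by the root mean square distance between centred log2 values over the 4 arrays, among 3353 named genes that varied by at least 0.5. Closest to Foxf1 were Phex, an endopeptidase gene of bone cells (distance 0.067), and Hhip, the hedgehog antagonist (0.095), and 4 genes in all lay within 0.1. Closest to Osr2 were Sprr1a, a gene of squamous epithelium (0.023), and Has2 (0.049), with 21 genes within 0.1. Closest to Foxf2 were the homeodomain gene Mkx of tendon (0.024) and Sh3rf2 (0.025), to Barx1 Pgm5 (0.052) and Itgbl1 (0.056), and to Meox2 the epithelial protease gene St14 (0.052) and the Kruppel-like factor gene Klf5 (0.095). Closest to Shox2 were the leptin receptor gene Lepr (0.026) and Ly96 (0.036), with 74 genes within 0.1, and to Osr1 Car11 (0.038) and Nav3 (0.039), with 166 genes within 0.1. Mn1 had no gene within 0.1, Macrod2 and Kcnab2 being nearest, since the candidates had to vary by more than Mn1 did. Phex, Sprr1a, Mkx, Sh3rf2 and Itgbl1 lay below 6.16 in both head arrays, and St14 lay below it in KO head (6.12). With 4 arrays such likeness mostly restates the contrast between shelves and head.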

How the data were processed

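The authors deposited log2 expression for each of 41345 transcript clusters, computed by RMA in Affymetrix Expression Console, per the submitters' processing notes. The sources used here give no version, genome build or annotation for this step. RMA sets all arrays to 1 distribution, which removes a shift shared by most genes and compresses folds of dim genes. Clusters were named through the platform annotation, with symbols updated by Entrez identifier (23328 of 23521 clusters with 1 symbol matched RefSeq, GRCm38.p6), and clusters of 1 gene were averaged. Each of the 8 members has 1 cluster. Groups came from the sample titles. The labels do not say that arrays come from separate embryos, so p-values describe only these arrays. They rest on how far KO minus WT differences varied between the tissues, joined with the prior, and not on replicates.

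Within a tissue, KO minus WT differences were taken without a test. Genotype and tissue effects came from 1 additive limma fit (limma 3.58.1, R 4.3.3; lmFit, eBayes, Benjamini-Hochberg) over genes whose highest array reached 6.16. On simulated data for the tissue effect over 11999 genes the fit recovered 28.8% of genes changed by 0.5, 97.8% by 1 and 99.8% by 2, and 92 of 1224 calls were false. For the genotype effect it recovered 24.8%, 98.2% and 100%, and 91 of 1206 calls were false. In the real arrays the genotype estimate reached 2-fold upward for 4 genes and downward for 13. Of all genes, 0 had a limma adjusted p under 0.05 for genotype. The simulated recovery is thus no measure of how many real genotype differences this fit would find. The same holds for tissue. The simulated noise was drawn from the fit's own prior, separately for each array, and holds no variation measured between embryos. Far fewer genes were changed in it than the 3342 called for tissue in the real arrays. The members and gene lists were chosen with earlier results of these data known. Besides all members and Tbx1, the text names up to 4 genes of a list with the largest absolute difference, relatives of the members, and the 2 genes of most similar pattern for each member. Alternatives were 3 further normalizations, the brightest cluster, other filters on dim genes, other fold thresholds, 3 priors of the fit and each genotype alone. Some genes of the lists were not analysed here.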

Additional observations from a re-analysis of the deposited data

How the results depend on the processing

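The 6 members that rose in the shelves passed a limma adjusted p of 0.05 under each of the other normalizations, filters, cluster choices and priors in which they were tested. With a mean-variance trend in the prior 1 member fell, Osr1 (-0.28, limma adjusted p 0.00914, and from 0.00914 to 0.219 over all settings). At a threshold of 0.32 on the log2 scale 1 member was lower in the head and 2 were higher in the shelves, where 0 were 2-fold different. No member passed for genotype under any setting, although 11 genes of the whole table did with the trend and 150 with 1 common variance, against 0. Among all tested genes, 1555 of 11999 (13.0%) rose in the shelves, against 1029 of 6359 (16.2%) with the upper-quartile filter, 1114 of 22180 (5.02%) with no filter and between 1236 and 1913 under the other settings. The median KO minus WT difference of the members ran from -0.077 to -0.023 in the head under the settings that kept all 8 members, and was 0.030 with the upper-quartile filter, which kept 3. In the shelves it ran from 0.15 to 0.19 over the normalizations, filters and cluster choices. Each member kept the sign of its difference in both tissues under these settings. The fit compares KO and WT within each tissue. No further pairing was possible with 1 array in each group, and the labels give no replicate numbers. Leaving out an array leaves no residual degrees of freedom. Arrays carry no read depth, and levels near 6.16 are compressed.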

Other observations

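The levels were also expressed relative to the mean of the 14 general mesenchyme genes on each array, a scale chosen after seeing the data and given as values with no test. On it the shelf minus head difference was 1.498 for Foxf1, 1.10 for Barx1, 1.0003 for Osr2, 0.95 for Meox2, 0.94 for Foxf2 and 0.35 for Shox2, and -0.77 for Mn1 and -0.91 for Osr1. The mean of the list was itself higher in the shelves by 0.62, and this value was subtracted from every member. The 6 members that rose in the fit had all risen by more, so their place above 0 was fixed in advance. KO minus WT in the shelves was 0.41 for Foxf1, 0.30 for Shox2, 0.15 for Osr1, 0.12 for Barx1, 0.097 for Osr2, 0.024 for Foxf2, -0.090 for Mn1 and -0.27 for Meox2 on this scale.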
